A study of Mus musculus with 8 samples.

Results

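Members of the miR-99/100 and miR-125 families were quantified by real-time PCR in cells of the mouse renal artery that carry CD34 but not CD105 (CD34+/CD105-). The 7 assays taken were those named miR-99a, miR-99b, miR-100, miR-125a-5p, miR-125a-3p, miR-125b-5p and miR-125b-3p, with the mouse assay used where it existed and the assays for passenger strands (marked # in the tables) left out. They are 7 of 750 miRNA assays, and the rule that picks them uses names and no measured value. There were 4 sham-operated mice and 4 mice in which the renal arteries were clamped bilaterally before reperfusion, so the comparison asks how these miRNAs differ after renal ischemia/reperfusion. The sources used here name no strain, sex, age, ischemia time or reperfusion time. CD34 marks endothelial and progenitor cells, and CD105 (endoglin) marks endothelial and mesenchymal stromal cells. Neither transcript can be checked with miRNA assays. The endothelial miR-126-3p and miR-126-5p were detected in all 8 samples, as were some leukocyte, smooth muscle and mesenchymal markers. Their detection alone therefore does not identify the cells.

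These miRNAs are encoded together. In vertebrates, a miR-99 or miR-100 gene, a let-7 gene and a miR-125 gene follow each other in 3 clusters. A single primary transcript can thus give rise to a member of each family. In the mouse Mir99b cluster, Mirlet7e and Mir125a start 95 and 368 bases after the hairpin before them ends. Mir125b-2 and Mir125b-1 start 46523 and 45115 bases after the let-7 hairpin before them. miR-99 and miR-100 are known repressors of mTOR and of the IGF receptor, which drive growth and protein synthesis. miR-125 miRNAs are the vertebrate relatives of worm lin-4; they are abundant in stem and progenitor cells and in the vessel wall, and are known to repress Lin28, Bak1 and the endothelin precursor.

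The mature sequences show why the assays fall into 2 families. The capitals mark the seed, bases 2 to 8 from the 5′ end, which pairs with the target. The sequences are RefSeq's on build GRCm38.p6; the deposited files do not give the sequences the assays were designed on. Assay names without an arm were matched to the 5p arm.
miR-99a: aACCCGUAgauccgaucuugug
miR-99b: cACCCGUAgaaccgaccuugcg
miR-100: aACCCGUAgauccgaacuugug
miR-125a-5p: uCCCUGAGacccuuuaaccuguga
miR-125b-5p: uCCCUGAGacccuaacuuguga
miR-351: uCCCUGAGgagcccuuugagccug

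miR-99a and miR-100 differ by 1 base, U16A, counted from the 5′ end of miR-99a. miR-99b differs from miR-99a at 4 positions outside the seed, A1C, U11A, U16C and U21C. Assays for miR-99a and miR-100 may therefore each read some of the other miRNA, and the sources used here give no test of it. miR-125a-5p and miR-125b-5p share their first 13 bases and their last 5. Of 1679 mature miRNA names in the RefSeq table, 3 carry the miR-99/100 seed and all were assayed; 5 carry the miR-125 seed, including miR-351, a mouse miRNA shown for comparison.

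The miR-99a sequence lies at chr16:77598940-77598961, the miR-99b sequence at chr17:17830194-17830215 and the miR-100 sequence at chr9:41531437-41531458, all on the plus strand. The miR-125a-5p sequence lies at chr17:17830817-17830840. miR-125b-5p is encoded at chr9:41581940-41581961 and at chr16:77646279-77646300 with the same letters, so its assay cannot tell the 2 genes apart. The hairpins of Mir100, Mirlet7a-2 and Mir125b-1 lie within the span of the long non-coding RNA gene Mir100hg. Those of Mir99b, Mirlet7e and Mir125a lie within the span of the protein-coding gene Spaca6. The hairpins of Mir99a, Mirlet7c-1 and Mir125b-2 overlapped no annotated gene other than themselves. The long non-coding RNA gene Mir99ahg lies on the same chromosome, but its span on this build, chr16:77329328-77558428, ends short of them.

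The readout is the threshold cycle (Ct): an abundant miRNA crosses the threshold early and has a low Ct, and 1 cycle stands for 1 log2 unit at full PCR efficiency. Efficiencies of the assays were not given, so distances between assays are approximate. Detection means a Ct under 35. Sham mice had between 75 and 163 detected miRNA assays and ischemia/reperfusion mice between 82 and 98, and sham mouse 2 had the fewest. The deposited delta Ct subtracts a reference value from each Ct. On the card (the assay plate) that holds all 7 assays, this reference was at Ct 20.0 ± 1.97 (SD, n = 4) in sham mice and at Ct 21.4 ± 0.804 (SD, n = 4) in ischemia/reperfusion mice. In bulk samples of sorted cells, fewer cells of a type and less RNA per cell cannot be told apart.

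Of the 7 assays, 5 gave a signal in most mice and the 3p arms did not. miR-125b-5p was detected in all 8 mice, as were 54 of the 750 miRNA assays (7.2%). miR-99b, miR-100 and miR-125a-5p were detected in 7 mice each, and miR-99a in 5. miR-125b-5p had the lowest Ct of the members in 8 of 8 mice. For 4 members, miR-99b, miR-100, miR-125a-5p and miR-125b-5p, at least 3 values per group were available, and they entered the fit across 72 miRNAs. After ischemia/reperfusion, 3 of these 4 had lower mean values against the deposited reference, beside 68.1% of the 72 miRNAs. None passed the adjusted threshold (0 of 4; limma with Benjamini-Hochberg adjustment, 0.0% of the 72). At an unadjusted limma p under 0.05 the count was also 0 of 4, beside 13.9% of the 72. An exact permutation test per miRNA also passed 0 of 4, but 3 against 4 values allow no p below 0.0571. For detection itself, Fisher's exact two-sided p was 1.0 for each of the 5 assays detected in some but not all mice, and 0.0% of 133 assays passed.

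**Figure D1:**
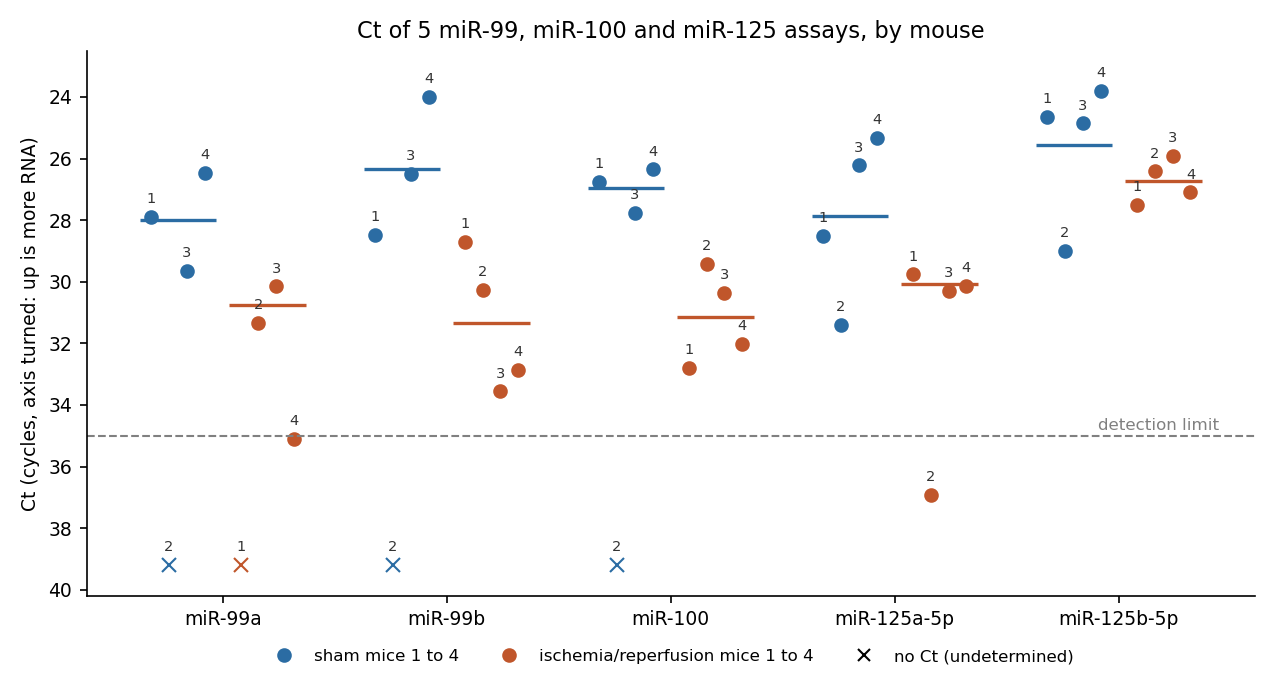
Ct of 5 assays in each mouse, on a turned axis so that up is more RNA. Blue points are sham mice and orange points ischemia/reperfusion mice, with the mouse number above each point; bars are means of the values below Ct 35 (dashed line), and crosses, drawn at an arbitrary height, are wells with no Ct. Sham mouse 2 has no Ct for miR-99a, miR-99b and miR-100, and miR-125a-5p of ischemia/reperfusion mouse 2 lies at Ct 36.9.

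miR-100, a repressor of mTOR encoded within the span of Mir100hg, had Ct 26.8, 27.8 and 26.4 in sham mice 1, 3 and 4 and no Ct in sham mouse 2. In ischemia/reperfusion mice 1 to 4 it had Ct 32.8, 29.4, 30.4 and 32.03. Among wells with a Ct, every ischemia/reperfusion mouse lay above every sham mouse. The sham well with no Ct has no value to compare, and would break this order if it stood for little RNA. Subtracting the reference brought the groups into overlap. On the minus delta Ct scale, sham mice 1, 3 and 4 were at -6.11, -8.77 and -8.42, and ischemia/reperfusion mice 1 to 4 at -11.78, -7.05, -9.85 and -10.36. Ischemia/reperfusion mouse 2 lay inside the sham range, and the other 3 ischemia/reperfusion mice lay below it. The log2 difference was -1.99 ± 1.22 (SE; 95% interval -4.82 to 0.83; limma adjusted p = 0.510), from 3 sham and 4 ischemia/reperfusion values. It was -1.16 without sham mouse 1, -1.32 without ischemia/reperfusion mouse 1 and -2.90 without ischemia/reperfusion mouse 2 (limma adjusted p = 0.220). With Ct 35 in place of undetected values it was -0.79, and with undetermined wells at Ct 40 it turned to 0.46.

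miR-99b, from the cluster in Spaca6, had Ct 28.5, 26.5 and 23.99 in sham mice 1, 3 and 4 and no Ct in sham mouse 2. In ischemia/reperfusion mice 1 to 4 it had Ct 28.7, 30.3, 33.6 and 32.9. The values again did not overlap among wells with a Ct, by a margin of under 1 cycle between sham mouse 1 and ischemia/reperfusion mouse 1. On the minus delta Ct scale the sham values were -7.83, -7.50 and -6.06, and the ischemia/reperfusion values -7.70, -7.90, -13.04 and -11.20. Ischemia/reperfusion mice 1 and 2 lay close to the sham mice, and mice 3 and 4 lay far below all of them. The log2 difference was -2.83 ± 1.40 (SE; 95% interval -6.06 to 0.41; limma adjusted p = 0.401), the 6th lowest of the 72. Its pooled SD within groups was 2.10, beside a median of 1.27 over the 72 miRNAs, and that of miR-100 was 1.79. The log2 difference was -1.80 without ischemia/reperfusion mouse 3, -3.58 without mouse 1 and -3.51 without mouse 2. It leaves out the sham well with no Ct: with Ct 35 in place of undetected values it was -1.47, and with undetermined wells at Ct 40 it was -0.22. Without any reference, the groups of miR-99b and miR-100 did not overlap among wells with a Ct. This holds for 2 of the 4 tested members, beside 13.9% of the 72 miRNAs, and against the deposited reference for 0 of 4, beside 6.94% lower and 0.0% higher. The 13.9% is not a like comparison. miR-99b and miR-100 lack a value in sham mouse 2, whose reference, at Ct 22.4, was the latest on this card. Most of the 72 miRNAs include that mouse. miR-127 and an assay of miR-214, which also lack a Ct only there, did not overlap without a reference either.

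miR-99a, the near copy of miR-100, stood outside the fit. It had Ct 27.9, 29.7 and 26.5 in sham mice 1, 3 and 4 and no Ct in sham mouse 2. After ischemia/reperfusion it had Ct 31.3 and 30.1 in mice 2 and 3, Ct 35.1 in mouse 4, over the detection limit, and no Ct in mouse 1. Every ischemia/reperfusion well with a Ct lay above every sham well with a Ct. As for miR-99b and miR-100, this leaves out sham mouse 2, whose reference was the latest on this card. The shares given for the tested miRNAs do not cover miR-99a. On the minus delta Ct scale the detected sham values were -7.26, -10.66 and -8.53, and the detected ischemia/reperfusion values -8.97 and -9.63, which lay inside the sham range. The difference of the detected means was -0.48, from 3 sham and 2 ischemia/reperfusion values. With 2 values per group allowed in the fit, its SE was 1.22 (limma adjusted p = 0.834). Without sham mouse 1 the difference turned to 0.30, and without sham mouse 3 it was -1.40. With any Ct counted as detected it was -1.86 ± 1.49 (SE; limma adjusted p = 0.603), from 3 values per group.

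miR-125b-5p, the most abundant member by Ct, had Ct 24.7, 29.0, 24.9 and 23.8 in sham mice 1 to 4 and 27.5, 26.4, 25.9 and 27.1 after ischemia/reperfusion. Sham mouse 2 lay above all other mice, and the other 3 sham mice lay below all ischemia/reperfusion mice. On the minus delta Ct scale the sham values were -4.00, -6.55, -5.86 and -5.86, and the ischemia/reperfusion values -6.48, -4.04, -5.38 and -5.43, so each group spanned nearly the same range. The log2 difference was 0.24 ± 0.77 (SE; 95% interval -1.51 to 1.98; limma adjusted p = 0.835; n = 4 per group). It was -0.09 without sham mouse 2, -0.19 without ischemia/reperfusion mouse 2, -0.02 against the control assays and -1.15 without a reference, so its direction was not settled.

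miR-125a-5p, which shares the seed of miR-125b-5p, had Ct 28.5, 31.4, 26.2 and 25.3 in sham mice 1 to 4. After ischemia/reperfusion it had Ct 29.8, 30.3 and 30.1 in mice 1, 3 and 4, and Ct 36.9 in mouse 2, over the detection limit. The 3 detected ischemia/reperfusion values lay within 1 cycle of each other, above sham mice 1, 3 and 4 and below sham mouse 2. On the minus delta Ct scale the sham values were -7.87, -8.96, -7.22 and -7.40, and the detected ischemia/reperfusion values -8.74, -9.77 and -8.47. The log2 difference was -1.13 ± 0.70 (SE; 95% interval -2.75 to 0.49; limma adjusted p = 0.510), -1.50 without sham mouse 2 and -0.74 without ischemia/reperfusion mouse 3. With the well of ischemia/reperfusion mouse 2 kept, at -14.54 on that scale, the difference was -2.52 ± 1.33 (SE; limma adjusted p = 0.451).

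The 3p arms were at or near the limit of the assay. miR-125a-3p had no Ct in any mouse, and miR-125b-3p had a Ct in sham mouse 4, at 34.6, and in no other mouse. In sham mouse 4 the miR-125b-5p assay ran 10.8 cycles ahead of the miR-125b-3p assay. The sequences of these arms have their own seeds, and the name miR-125b-3p does not say which of the 2 genes it stands for.
miR-125a-3p: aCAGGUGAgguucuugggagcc
miR-125b-1-3p: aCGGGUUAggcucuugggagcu
miR-125b-2-3p: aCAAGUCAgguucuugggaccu

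**Figure D2:**
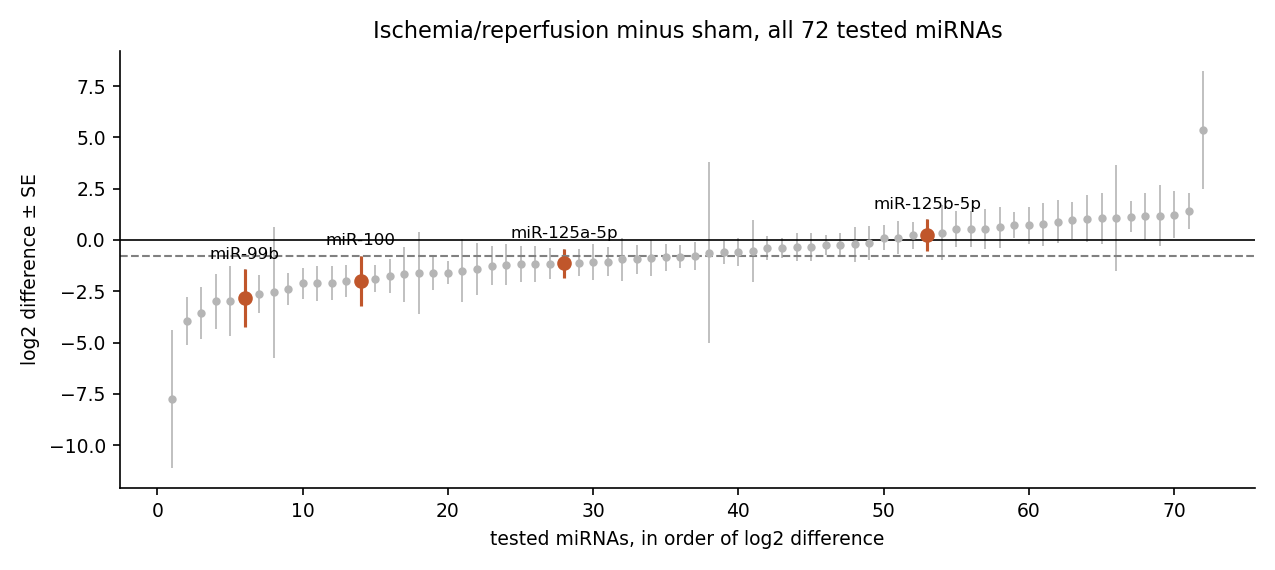
Log2 difference (ischemia/reperfusion minus sham, minus delta Ct) of all 72 tested miRNAs in order, with standard errors as bars; the 4 tested members are in orange, and the dashed line is the median of all 72, -0.80. miR-99b and miR-100 lie below that median, miR-125a-5p near it and miR-125b-5p above it, and each member's 95% interval (not drawn) covers 0.

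The choice of reference moved all 4 tested members in the same direction, but not by the same amount. Over the 72 miRNAs the median log2 difference was -0.80 with the deposited reference. It was -0.31 with a global mean as reference, taken per card over miRNAs detected in every mouse, and -1.93 with none. The share with lower mean values was 56.9% and 90.3% in these settings. miR-99b was at -2.24 with the global mean and at -5.03 with no reference (limma adjusted p = 0.463 and 0.0960). miR-100 was at -1.40 and -4.19 in the same settings (limma adjusted p = 0.560 and 0.0632). miR-125a-5p was at -0.15 and -2.20, close to the median of all miRNAs each time. miR-125b-5p was at 0.89 and -1.15, above that median each time. A reference takes the same value from every member of a mouse, but the members were averaged over different mice. miR-99b and miR-100 leave out sham mouse 2, and miR-125a-5p leaves out ischemia/reperfusion mouse 2. The distances between members therefore changed with the reference, while their order in these settings did not. Filling wells without a Ct did change the order. With Ct 35 in place of undetected values, miR-125a-5p was at -2.04, miR-99b at -1.47 and miR-100 at -0.79.

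**Figure D3:**
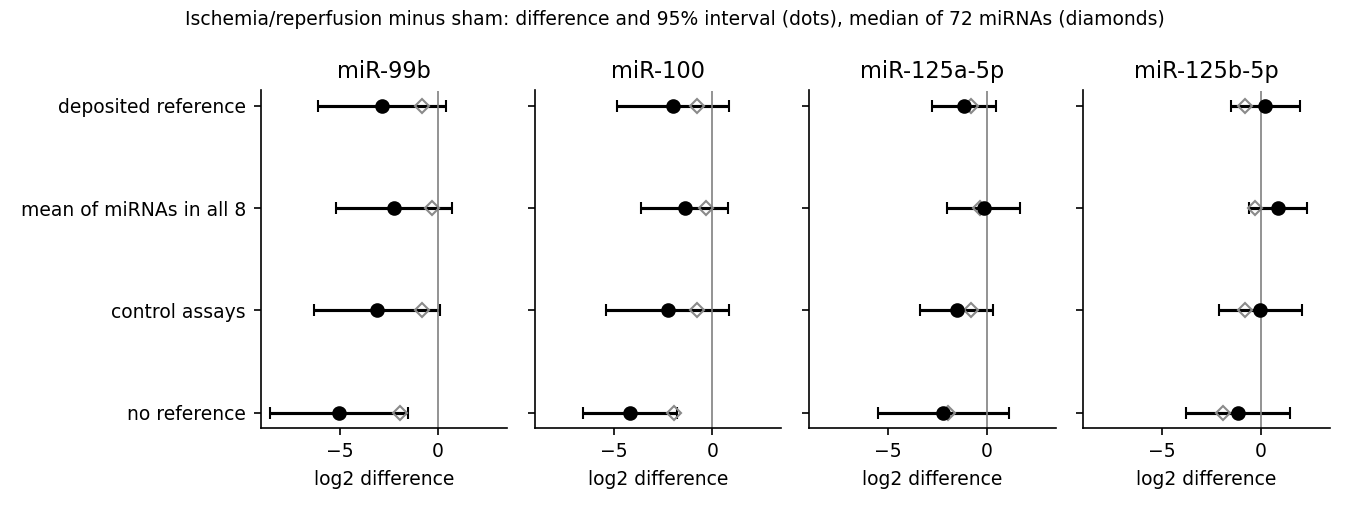
Log2 difference (ischemia/reperfusion minus sham) of the 4 tested members with 95% intervals, for 4 references; open diamonds are the median of the 72 tested miRNAs under the same reference. Without a reference the intervals of miR-99b and miR-100 lie below 0, but their adjusted p-values, 0.0960 and 0.0632, miss the threshold.

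All 7 assays share a card, so the difference between a pair of them within a mouse does not depend on the reference. Of 9 pairs, formed by cluster, seed or hairpin, 4 had at least 3 mice per group with both members detected, and these were compared with an exact two-sided permutation test. With 3 or 4 mice against 3 or 4, and 3 in at least 1 group of each pair, no p can fall below 0.0571, so no pair could pass (lowest adjusted p = 0.229). For the cluster mates miR-100 and miR-125b-5p, the within-mouse log2 difference was -2.11, -2.91 and -2.56 in sham mice 1, 3 and 4. It was -5.30, -3.004, -4.47 and -4.93 in ischemia/reperfusion mice 1 to 4. Among mice with both detected, miR-100 was thus lower relative to miR-125b-5p in every ischemia/reperfusion mouse than in any sham mouse. Ischemia/reperfusion mouse 2, at -3.004, lay close to sham mouse 3, at -2.91. The share of other assay pairs on this card that separate in the same mice was not computed. The separation therefore cannot be called particular to this pair. The shift was -1.90, and its exact permutation p of 0.0571 is the smallest that 3 against 4 values allow (adjusted p = 0.229 over 4 pairs). With Ct 35 for the sham well without a Ct the shift was -1.03 (exact permutation p = 0.371). Because miR-125b-5p is also encoded in the Mir99a cluster, this difference between mature miRNAs cannot be assigned to the 2 ends of 1 transcript.

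For miR-99b and miR-125a-5p, encoded in the same cluster, the within-mouse difference was 0.04, -0.28 and 1.34 in sham mice 1, 3 and 4. It was 1.05, -3.27 and -2.73 in ischemia/reperfusion mice 1, 3 and 4. Mouse 1 stayed in the sham range and mice 3 and 4 lay below it (shift -2.02, exact permutation p = 0.3; the smallest p for 3 against 3 is 0.1). With any Ct counted, ischemia/reperfusion mouse 2 entered and the shift was 0.06. For the seed mates miR-125a-5p and miR-125b-5p, the difference was -2.29 ± 1.15 (SD, n = 4) in sham and -3.23 ± 1.08 (SD, n = 3) after ischemia/reperfusion, a shift within the spread (exact permutation p = 0.343). miR-99b and miR-100 differed by 0.64 ± 2.11 (SD, n = 3) in sham and -0.20 ± 3.06 (SD, n = 4) after ischemia/reperfusion. That pair did not keep a fixed distance: miR-99b was 4.08 log2 units above miR-100 in ischemia/reperfusion mouse 1 and at -3.19 against it in mouse 3.

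**Figure D4:**
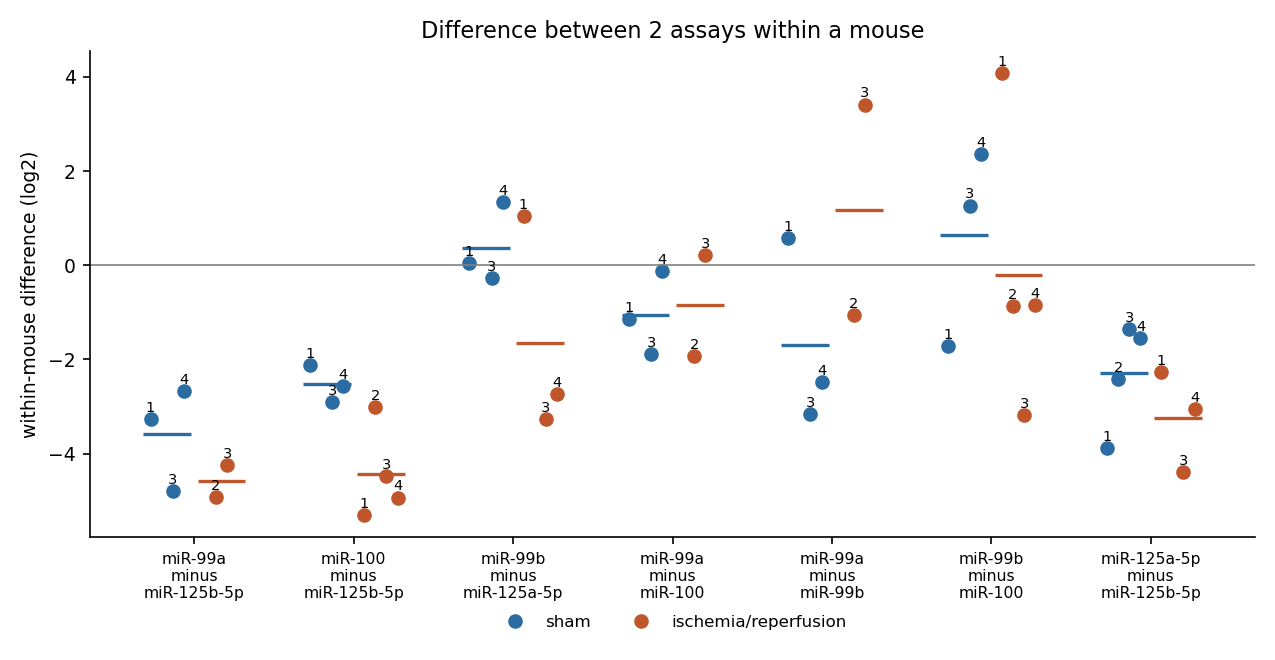
Within-mouse difference (log2) between the first and the second assay of each pair, for mice in which both were detected; numbers are mouse numbers and bars are means. In the pair of miR-100 and miR-125b-5p all ischemia/reperfusion mice lie below the sham mice, by a narrow margin and without sham mouse 2. The points of the other pairs overlap between groups, and pairs with miR-99a have only 2 ischemia/reperfusion mice.

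Sham mouse 2 lacked a Ct for all 3 members of the miR-99/100 family, while both miR-125 guide arms were detected there. Of the 58 miRNA assays detected in the other 7 mice, 4 had no Ct in sham mouse 2 (6.9%), and these were miR-99b, miR-100, miR-127 and miR-214, of which the last 2 are no members. A second assay named miR-214 was detected in all 4 sham mice, mouse 2 included. In the other sham mice miR-100 ran between 2.11 and 2.91 cycles after miR-125b-5p. At that distance it would have reached threshold between Ct 31.1 and 31.9 in sham mouse 2. By the same reckoning miR-99a would have lain between Ct 31.7 and 33.8, and miR-99b, set against miR-125a-5p, between Ct 30.1 and 31.7. These values are below the detection limit, and 24 other miRNA assays had a Ct between 30.1 and 33.8 in that mouse. The reckoning takes the distance from the other sham mice, and such distances were not fixed over all mice. The log2 difference of miR-100 against miR-125b-5p was -5.30 in ischemia/reperfusion mouse 1. That of miR-99b against miR-125a-5p was -3.27 in ischemia/reperfusion mouse 3. Why these wells had no Ct was not tested.

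The let-7 members of the 3 clusters differed in whether they could be measured. let-7c, the partner of miR-99a and miR-125b, was detected in 8 of 8 mice, at Ct 22.3 ± 2.16 (SD, n = 4) in sham mice and at Ct 24.3 ± 0.685 (SD, n = 4) in ischemia/reperfusion mice. Its log2 difference was -0.59 ± 0.56 (SE; limma adjusted p = 0.587). let-7c is also encoded outside this cluster, at chr15:85706616-85706637. let-7e, from the cluster of miR-99b and miR-125a, gave Ct 31.1 in sham mouse 3 and Ct 27.4 in sham mouse 4, and was not detected in any ischemia/reperfusion mouse. let-7a had no Ct in any mouse. Of the 3 let-7 assays, 1 was tested and 0 passed. The mouse assay for miR-351 had no Ct, and the rat assay of that name had a Ct in sham mouse 4 alone, at 34.8.

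The miRNAs whose pattern over the samples was most like that of each member were found by the SD of their difference in minus delta Ct, among the miRNAs detected in all 8 samples. For miR-125b-5p they were miR-30c (SD 0.64 log2 units), miR-877# (0.76) and miR-30b (0.82), over 8 samples and beside a median of 1.48 for all 53 compared. let-7c was 7th, at 0.95. For miR-125a-5p, over the 7 samples in which it was detected, they were miR-30a-3p (0.53), miR-2134 (0.59) and miR-1937b (0.74), and miR-125b-5p ranked 19th of 54. For miR-100 they were miR-29c (0.91), miR-320 (1.08) and miR-26a (1.13) over 7 samples, with miR-125b-5p 8th at 1.26. For miR-99b they were miR-195 (1.65), miR-145 (1.69) and miR-222 (1.76), with miR-125b-5p 34th at 2.65. Among the members, miR-125b-5p alone was detected in all 8 samples and could be compared; it was not among the first 3 for any other member. All values share the samples, and those on 1 card share the reference.

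Markers of other cell types were read beside these values. The level of a marker list is given as the sum of 2 to the power of minus delta Ct over its detected members. Endothelial markers, miR-126-3p and miR-126-5p, had a summed level between 0.0377 and 0.113 in sham and between 0.0181 and 0.0380 after ischemia/reperfusion. The log2 difference of miR-126-3p was -1.59 ± 0.57 (SE; limma unadjusted p = 0.0221, adjusted p = 0.228), and its groups did not overlap. That of miR-126-5p was 0.11 ± 0.60 (SE; limma adjusted p = 0.892). Fibroblast and mesenchymal markers had a summed level between 0.0119 and 0.0488 in sham and between 0.000906 and 0.0232 after ischemia/reperfusion. Of their tested members 4 of 4 had lower mean values (median log2 difference -2.82), beside 68.1% of the 72 miRNAs, and 0 passed. The miR-214 assay in this list was at -3.95, from 3 sham values. A second assay named miR-214, not in the list, was at -0.86 (limma adjusted p = 0.605), from 4 values per group. Of that list 4 of 5 were detected, and miR-199a-5p had no Ct. Smooth muscle markers lay between 0.000309 and 0.00289 in sham and between 0.000159 and 0.000684 after ischemia/reperfusion, with miR-143 detected in 2 of 4 sham mice and in no ischemia/reperfusion mouse. Leukocyte markers lay between 0.00687 and 0.0332 in sham and between 0.00485 and 0.0587 after ischemia/reperfusion, with 6 of 7 detected. Epithelial and tubule markers reached 0.364 in sham and 0.0923 after ischemia/reperfusion and were at 0 in at least 1 mouse of each group, with 4 of 9 detected. The sham maximum came almost wholly from miR-194, at Ct 20.5 in sham mouse 3, a mouse in which miR-192 had no Ct. Of the 4 striated muscle markers 2 were detected, at a summed level of at most 0.000488 in sham and 0.000507 after ischemia/reperfusion. Erythroid markers (0 of 2 detected) and neural markers (0 of 2 measured) were at 0. The part of these lists in the lower values of miR-99b and miR-100 was not tested.

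Fold changes (ischemia/reperfusion over sham) are listed in the authors' deposited table for 5 of the 7 assays. In the authors' deposited table it is 0.141 for miR-99b, 0.252 for miR-100 and 1.18 for miR-125b-5p, which equal the folds of the fit. For miR-125a-5p the authors' deposited table gives 0.175, against 0.457 from values below Ct 35, since it keeps the well at Ct 36.9. For miR-99a the authors' deposited table gives 0.276, against 0.717 from values below Ct 35, since it keeps the well at Ct 35.1. Both deposited folds therefore rest in part on a single late well.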

How the data were processed

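Renal artery was digested with collagenase, CD34+/CD105- cells were sorted, and RNA was measured on a 7900HT real-time PCR system in 8 mice, per the labels' protocols. The authors deposited Ct in cycles, delta Ct on a log2 scale and a fold change (ratio); the sources used here name neither the reference RNA nor the software. Each deposited delta Ct equals Ct minus 1 reference per sample and card. The 13 wells with a delta Ct but no Ct were treated as missing, and none belonged to the 7 assays. Repeated wells were averaged; miR-125a-5p and miR-125b-3p each have a repeat without any Ct.

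Values are given as minus delta Ct (higher means more RNA). miRNAs detected below Ct 35 in at least 3 samples of each group were tested across the whole table (72) by limma 3.58.1 (R 4.3.3); two-sided p-values were adjusted by Benjamini-Hochberg and called at 0.05. Fisher's exact test was used for detection and exact permutation tests for within-mouse differences (scipy 1.17.1). The fit was tested on simulated data. Alternatives changed the reference, the detection limit, the handling of wells without a Ct, the filter and the moderation, added a block by mouse number, or left out each mouse.

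Named miRNAs were the 7 members, miR-351, let-7a, let-7c and let-7e, for each member the 3 miRNAs with the most like pattern, and the marker lists; likeness over 7 samples was added after seeing the data, and miR-127 and miR-214 were named after their values were seen. The members and lists were chosen with earlier results of these data known. The marker name miR-128a matched no assay. Each sample was taken as 1 mouse, as labelled. No depth per well is given, and the spread between mice sets the precision.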

Additional observations from a re-analysis of the deposited data

How the results depend on the processing

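No member passed the adjusted threshold in the main fit or in any of its 20 alternatives; the lowest adjusted p was that of miR-100 without a reference, 0.0632. The count of miRNAs past the threshold was 0, and it was 1 with any Ct counted as detected, 1 with values not detected set to Ct 35 and 1 with undetermined wells at Ct 40. Leaving out 1 mouse at a time gave 0 to 1, with 1 without sham mouse 1 and 1 without sham mouse 2. With Ct 35 and without sham mouse 2, an alternative chosen after seeing the data, it was 6. miR-100 turned to 0.46 with undetermined wells at Ct 40, which sets the well of sham mouse 2. miR-125b-5p, at 0.24, turned to -1.15 without a reference, to -0.017 against the control assays and to -0.091 with Ct 35 and without sham mouse 2, and lay between -0.19 and 0.76 in the fits that left out a mouse. miR-99a, at -0.48, moved to -2.73 without a reference, -1.86 with any Ct, -1.75 with undetermined wells at Ct 40 and -2.66 with Ct 35 and without sham mouse 2, and it lay between -1.40 and 0.30 in the comparisons that left out a mouse, turning without sham mouse 1. miR-99b, at -2.83, was at -1.47 with Ct 35 and at -0.22 with undetermined wells at Ct 40. The within-mouse shift of miR-99b against miR-125a-5p turned to 0.056 with any Ct and to 0.57 with Ct 35, and that of miR-99b against miR-100 lay between -2.27 and 0.16 in the fits that left out a mouse. With a limit of Ct 32, miR-99b and miR-100 were each detected in 1 fewer ischemia/reperfusion than sham mouse (-1), against 1 more at Ct 35, and had too few values for the fit. The cause of these moves was not tested where it is not named.

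Mouse numbers gave no sign of pairing the samples: same-numbered mice correlated between -0.38 and 0.02 in their deviations over 54 miRNAs. Differently numbered mice correlated between -0.26 and 0.55. So few same-numbered pairs cannot exclude pairing. With mouse number as a replicate block, the log2 difference of miR-99b was -3.51, that of miR-100 -2.90, that of miR-125a-5p -1.50 and that of miR-125b-5p 0.24, with no call gained among them. Groups of 4 mice, and 3 where a well had no Ct, limit all of these values; changes of the size seen here cannot be told from 0.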

Other observations

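In the ischemia/reperfusion group the members did not rank the mice alike. miR-99b was highest in mouse 1 (Ct 28.7) and miR-100 lowest there (Ct 32.8), while miR-99a had no Ct in that mouse. Mouse 2 had the highest miR-100 (Ct 29.4) and the lowest miR-125a-5p (Ct 36.9). In the sham group, mouse 4 had the lowest Ct of each of the 5 assays, and it also had the most detected miRNA assays, 163. The 4 assays for passenger strands of these hairpins had no Ct in any mouse.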
